A study of Rattus norvegicus with 30 samples.

Results

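The comparison described here is that of rat hippocampal neurons that had been with monomethyl fumarate (MMF) for 24 h against neurons that had been with it for 4 h. Its members were all libraries labelled MMF, 3 at each time point, that is 6 of the 30 libraries of the series. The cells were wild-type primary cultures from Wistar embryos at embryonic day 18, grown for 7 days and then given 30 µM MMF, with the vehicle DMSO at 0.2% in the medium. The same times were sampled with DMSO alone and with 30 µM dimethyl fumarate (DMF), again with 3 libraries per group. The labels say that the experiment was done 3 times and number the libraries of each group 1 to 3. MMF libraries of the same number deviated together, so that the 4 h and 24 h library of a number were compared as a pair. Time with MMF and time in culture passed together and cannot be told apart within MMF alone.

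MMF is the main active metabolite of DMF, and they differ in that DMF carries a further methyl ester. Fumarates can bind cysteines of Keap1, the adaptor that otherwise sends the transcription factor Nrf2 to the proteasome, and Nrf2 then drives genes for glutathione conjugation, quinone reduction and NADPH supply. Hippocampal neurons in culture go on forming synapses and inserting receptors and channels over such a period, and they carry immediate early genes, such as *Fos* and *Npas4*, that answer calcium entry within minutes. Glial cells grow beside them, and lactate made by glycolysis in astrocytes can serve neurons as fuel.

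The 6 MMF libraries held between 16201784 and 22423505 reads on genes, within the 15108132 to 25367834 of all 30, and the values below are reads divided by a size factor per library (normalized counts). Of 20029 genes listed, 14171 passed the filter on low counts, 14064 of them protein coding. On the first principal component, which held 43.3% of the variance, both libraries of replicate 3 stood apart (20.1 at 24 h and 35.6 at 4 h, the others between -20.8 and -7.65), and the second, with 24.1%, set every 24 h library (9.56 to 16.8) above every 4 h library (-27.1 to -3.28). Mitochondrial transcripts took 6.65% of the reads in replicate 1 at 4 h and 4.67% to 5.59% in the others. All 18 neuronal markers on the list passed the filter. Astrocyte and oligodendrocyte lineage markers were also present, whereas the summed normalized counts of 15 microglial markers came to 463, 239.7 and 79 at 4 h and 107, 156 and 112 at 24 h, and 3 of them (*P2ry12*, *Tmem119* and *Ly86*) stayed under 10 in every library. These are bulk cultures, in which fewer cells of a type and less RNA per cell cannot be told apart.

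Between 4 and 24 h with MMF, 258 genes changed at an adjusted p under 0.05 (DEGs, limma with the replicate number as a block), which is 1.82% of the genes tested, and all 258 were protein coding. Of these, 222 were higher at 24 h (1.57% of the genes tested) and 36 were lower (0.254%). The changes were small: the median log2FC was 0.45 among the genes that rose and -0.52 among those that fell, 142 of the 222 rose by a log2FC under 0.5, and 12 passed 1 in either direction. In 177 of the 258 the 3 libraries of each time did not overlap, against 18.2% of all genes tested. The median over all genes was 0.014.

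Pairing decided the count. Without the replicate block 0 genes passed in limma (1488 at an unadjusted p under 0.05, lowest adjusted p = 0.24) and 0 in edgeR (1479 at an unadjusted p under 0.05), while DESeq2 without the block called 49. With the block, edgeR called 232, of which 230 were among the 258, and DESeq2 256, of which 195 were (15 of the 258 had no adjusted p). Leaving out the pair of replicate 1, 2 or 3 gave 829, 364 and 820 DEGs, and of the 258, 257, 161 and 240 were still called, with 0 changes of sign. With 2 pairs little is left to estimate a gene's own spread, so these p-values rest largely on the spread pooled across genes. The counts without a replicate, here and below, therefore cannot show stability. A gene whose 3 pairs all moved one way could not change sign. With all 3 pairs a gene's own spread is also thinly estimated, so the 258 calls lean on the pooled spread too.

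The neurotensin receptor *Ntsr1* had the smallest p of the genes tested. It had normalized counts of 196, 255 and 190.2 in replicates 1 to 3 at 4 h and 410.2, 488 and 384 at 24 h. All its 24 h libraries lay above all its 4 h libraries, and its mean went from 214 ± 35.8 to 428 ± 53.9 (SD, n = 3) (log2FC 1.00 ± 0.10, adjusted p = 0.00524). The muscarinic acetylcholine receptor *Chrm1* had 147, 161 and 146 in replicates 1 to 3 at 4 h and 313, 319.8 and 276 at 24 h. Its libraries lay close together within each time and did not overlap between times (log2FC 0.99 ± 0.11, adjusted p = 0.00868). Acetylcholinesterase, encoded by *Ache*, which ends the cholinergic signal, read 289.8, 299 and 227 in replicates 1 to 3 at 4 h and 491, 657 and 385 at 24 h. Replicate 2 was highest at both times, and again no libraries overlapped (log2FC 0.88 ± 0.10, adjusted p = 0.0103).

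Since 2 of the leading genes serve acetylcholine, all genes of that system were looked up, as a list chosen after these values were seen. All 15 of its 20 genes that could be tested had a log2FC above 0, against 53.1% of all genes, and 5 rose, against 1.57% of all genes. These 5 include *Chrm1* and *Ache*, which prompted the list. The others were the M3 receptor *Chrm3* (log2FC 0.48, adjusted p = 0.0224), the nicotinic subunit *Chrna4* (log2FC 0.44, adjusted p = 0.0266) and *Lynx1*, a membrane anchored modulator of nicotinic receptors (log2FC 0.76, adjusted p = 0.0169). The median log2FC over the list came to 0.33 with MMF and 0.33 with DMSO, where 3 of these genes rose. The widely expressed nicotinic subunits *Chrna7* and *Chrnb2* had log2FC of 0.22 and 0.22 and did not pass.

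Dendrin, a protein of dendritic spines encoded by *Ddn*, rose from 2149 ± 382 to 3222 ± 309.6 (SD, n = 3; log2FC 0.60 ± 0.079, adjusted p = 0.0154), and *Phyhip* from 1661 ± 159.9 to 2491 ± 144 (log2FC 0.59 ± 0.074, adjusted p = 0.0112). *Slc7a4*, of the family of cationic amino acid carriers, read 249, 289.5 and 326 in replicates 1 to 3 at 4 h and 484, 477 and 478 at 24 h. Its libraries at 24 h lay closer together than its libraries at 4 h (SD 4.16; log2FC 0.74 ± 0.10, adjusted p = 0.0176). The calcium sensor *Hpcal4* (log2FC 0.47 ± 0.067, adjusted p = 0.0177), the synaptotagmin *Syt13* (log2FC 0.65 ± 0.092, adjusted p = 0.0177), *Nrsn2*, of neuronal vesicles (log2FC 0.82 ± 0.12, adjusted p = 0.0177), the exchange factor *Kndc1* (log2FC 0.51 ± 0.07, adjusted p = 0.0176) and the T-type calcium channel *Cacna1i* (log2FC 0.48 ± 0.065, adjusted p = 0.0169) also rose with no overlap between times.

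In all, 4 genes rose past a log2FC of 1. They were *Ntsr1* and 3 genes of low level, named after their values were seen: *Ghsr*, the ghrelin receptor (log2FC 1.75, adjusted p = 0.0384), *Plvap*, of endothelial diaphragms (log2FC 1.41, adjusted p = 0.0326), and *Aadat*, of kynurenine metabolism (log2FC 1.00, adjusted p = 0.044). Their mean normalized counts at 24 h were 27, 57.9 and 55.9.

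**Figure D1:**
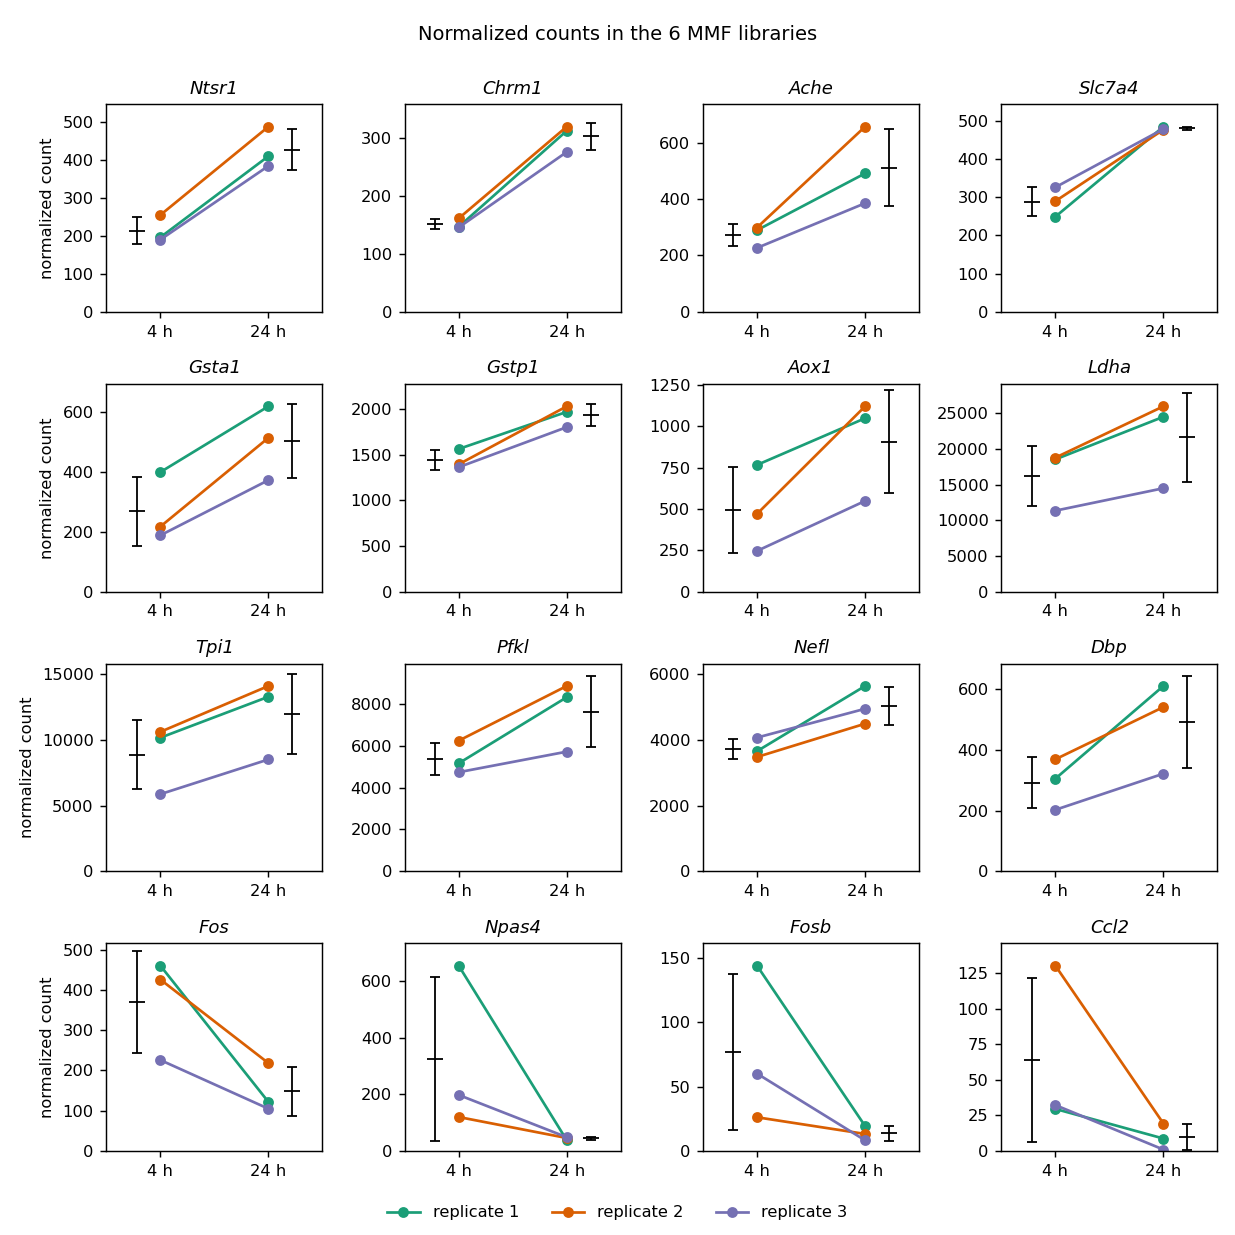
Normalized counts of 16 genes in the 6 MMF libraries, 1 panel per gene, with the y axis starting at 0. Coloured points and lines are replicates 1 to 3, each joined from 4 h to 24 h, and black bars give the mean ± SD of 3 libraries. Every line goes up in the first 12 panels and down in *Fos*, *Npas4*, *Fosb* and *Ccl2*, and replicate 3 starts and ends lowest in *Ldha*, *Tpi1* and *Aox1*.

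Among 31 Nrf2 target genes tested, 4 rose and 0 fell, against the 1.57% of all genes that rose, and the median log2FC was 0.12. Of the 4, 3 are glutathione transferases and the other, *Me1*, makes NADPH. *Gsta1* read 399, 217 and 188 in replicates 1 to 3 at 4 h and 619.6, 514 and 373 at 24 h. Each of the 3 pairs rose, although the lowest 24 h value lay under the highest 4 h value (log2FC 0.95 ± 0.12, adjusted p = 0.0112).

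*Gstp1* read 1564, 1396 and 1364 in replicates 1 to 3 at 4 h and 1971, 2032 and 1803 at 24 h. Its libraries did not overlap between times (log2FC 0.43 ± 0.068, adjusted p = 0.0214). *Gstm1* read 1578, 1473 and 1325 in replicates 1 to 3 at 4 h and 2199.5, 2049.9 and 1573 at 24 h, and replicate 3 was lowest at both times (log2FC 0.40 ± 0.071, adjusted p = 0.0248). Malic enzyme, encoded by *Me1*, read 2106, 1498 and 1432 in replicates 1 to 3 at 4 h and 2570.1, 1979.9 and 1828 at 24 h, and replicate 1 was highest at both times (log2FC 0.35 ± 0.063, adjusted p = 0.0266). The quinone reductase *Nqo1* had a log2FC of 0.48 ± 0.13 and did not pass (adjusted p = 0.0813). The rest of the list was not uniform: heme oxygenase *Hmox1* (log2FC -0.46, adjusted p = 0.0702), the glutamate cysteine ligase subunit *Gclc* (log2FC -0.26, adjusted p = 0.0961) and sulfiredoxin *Srxn1* (log2FC -0.42, adjusted p = 0.229) had negative log2FC that did not pass, 11 of 31 members in all were below 0, and *Nfe2l2*, which encodes Nrf2, had a log2FC of -0.0013. *Aox1*, an aldehyde oxidase that is not on the list, read 767, 469.9 and 246 in replicates 1 to 3 at 4 h and 1049, 1121 and 548 at 24 h. It rose in every pair (log2FC 0.95 ± 0.13, adjusted p = 0.0176), with replicate 3 lowest at both times.

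A wider look at all glutathione transferases, again a list chosen after the values were seen, found all 17 of 21 genes that could be tested above 0, with a median log2FC of 0.30, and 4 of them rose. Over all genes tested 53.1% were above 0 and 1.57% rose. Of the 4, *Gsta1*, *Gstp1* and *Gstm1* were known to have risen before the list was drawn up. The wider list added *Gstt3* (log2FC 0.64, adjusted p = 0.0177). The DMSO median of the same genes was -0.0097 and 0 rose there at an adjusted p under 0.05. Reads shared between near-identical family members were not resolved here, so the single genes of the mu and alpha classes are uncertain. Without replicate 2, *Gsta1* was the 1 of 31 Nrf2 targets that passed, with *Gstp1* at an adjusted p of 0.0559, *Gstm1* at 0.0621 and *Me1* at 0.118, whereas 9 rose without replicate 1 and 7 rose without replicate 3.

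Promoters of a few genes that rose are shown because these genes belong to the Nrf2 and glycolytic lists and hold the short motif best known for Nrf2 or for the hypoxia factor HIF. Windows are the 250 bases before the RefSeq start of the gene in the GRCr8 build, 5′ to 3′ on the gene's own strand, and both strands were searched, in motifs chosen after the expression values were seen. In *Gstp1* (chr1:210769706-210769955, minus strand) and *Me1* (chr8:96540245-96540494, minus strand), capitals mark the antioxidant response element core TGACNNNGC, which begins 61 and 167 bases before the start:
Gstp1: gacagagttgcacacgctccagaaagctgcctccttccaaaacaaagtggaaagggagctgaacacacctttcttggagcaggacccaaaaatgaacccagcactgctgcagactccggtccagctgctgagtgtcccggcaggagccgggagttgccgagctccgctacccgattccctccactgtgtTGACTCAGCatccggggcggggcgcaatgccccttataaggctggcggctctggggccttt
Me1: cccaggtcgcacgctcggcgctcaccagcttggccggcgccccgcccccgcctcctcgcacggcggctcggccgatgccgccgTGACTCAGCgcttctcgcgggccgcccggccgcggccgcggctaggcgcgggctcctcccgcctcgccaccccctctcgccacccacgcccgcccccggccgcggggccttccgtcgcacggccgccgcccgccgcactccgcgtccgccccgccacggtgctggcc

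With the first listed window of each gene, this motif was in 10.2% of 27457 windows of that length. It was in 6 of the 27 Nrf2 targets with a window (22.2%), but also in 6 of 26 immediate early genes (23.1%). Of the 4 that rose, *Gstp1* and *Me1* held it and *Gsta1* and *Gstm1* did not in this window. In *Ldha* (chr1:106507842-106508091, plus strand), *Aldoc* (chr10:63715294-63715543, plus strand) and *Eno2* (chr4:159267221-159267470, minus strand), capitals mark ACGTG on either strand, the core of the hypoxia response element, which also lies within the E-box CACGTG:
Ldha: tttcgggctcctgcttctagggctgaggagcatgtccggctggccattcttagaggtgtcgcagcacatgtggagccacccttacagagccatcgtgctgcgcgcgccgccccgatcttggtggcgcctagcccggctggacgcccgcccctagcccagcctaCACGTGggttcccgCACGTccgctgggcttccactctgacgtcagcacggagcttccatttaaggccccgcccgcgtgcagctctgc
Aldoc: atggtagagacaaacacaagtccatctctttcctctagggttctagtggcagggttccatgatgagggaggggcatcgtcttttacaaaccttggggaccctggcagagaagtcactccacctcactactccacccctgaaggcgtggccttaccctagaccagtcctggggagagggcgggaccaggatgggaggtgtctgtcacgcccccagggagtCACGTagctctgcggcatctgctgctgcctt
Eno2: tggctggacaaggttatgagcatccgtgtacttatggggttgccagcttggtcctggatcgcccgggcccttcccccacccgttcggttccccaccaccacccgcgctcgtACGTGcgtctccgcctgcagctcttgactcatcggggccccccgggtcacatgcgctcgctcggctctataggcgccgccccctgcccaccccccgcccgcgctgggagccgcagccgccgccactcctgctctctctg
It was in 16.9% of the 27457 windows and in 9 of the 20 glycolytic genes with a window (45.0%), and in 10 of 26 immediate early genes (38.5%). The glycolytic genes with it included 4 of the 8 that rose and have a window. Of the 27 Nrf2 targets 3 held it (11.1%), among them *Gsta1* and *Gstm1*, which are 2 of the 4 that rose. A match describes the letters of a window only.

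Glycolysis was the list with the most DEGs: 9 of 21 genes tested rose and 0 fell, with a median log2FC of 0.31 and 19 of 21 above 0. Over all genes tested 1.57% rose and 53.1% were above 0. They cover the pathway from the isomerase *Gpi* (log2FC 0.37, adjusted p = 0.0266) and phosphofructokinase *Pfkl* (log2FC 0.49, adjusted p = 0.0224) through aldolase *Aldoc* (log2FC 0.34, adjusted p = 0.033), *Tpi1* (log2FC 0.44, adjusted p = 0.0177), *Pgk1* (log2FC 0.42, adjusted p = 0.0224), *Pgam1* (log2FC 0.33, adjusted p = 0.0388) and enolase *Eno2* (log2FC 0.39, adjusted p = 0.0336) to pyruvate kinase *Pkm* (log2FC 0.41, adjusted p = 0.0224) and lactate dehydrogenase *Ldha* (log2FC 0.41, adjusted p = 0.0237).

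Triosephosphate isomerase, *Tpi1*, read 10171, 10615 and 5868 in replicates 1 to 3 at 4 h and 13289.7, 14109.6 and 8513 at 24 h. *Ldha*, whose enzyme turns pyruvate into lactate, read 18531, 18773 and 11338 in replicates 1 to 3 at 4 h and 24504, 25975 and 14485 at 24 h. In both, every pair rose, but replicate 3 lay so low at both times that the times overlapped. *Pfkl* read 5171, 6255 and 4745 in replicates 1 to 3 at 4 h and 8339.6, 8879 and 5730.0 at 24 h, with the smallest rise in replicate 3. Neuronal enolase *Eno2* read 5797, 6039 and 6503 in replicates 1 to 3 at 4 h and 8176, 8402 and 7384 at 24 h, and here no libraries overlapped. The remaining members spread from -0.26 in *Pfkfb3*, whose product raises the phosphofructokinase activator, to 1.15 in the lactate exporter *Slc16a3*, which is of low level and did not pass (adjusted p = 0.0675).

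In the steps beyond pyruvate, 0 of 17 genes of the TCA cycle and 0 of 13 mitochondrially encoded genes passed in limma (1 of each at an unadjusted p under 0.05), with medians of 0.024 and -0.0021. Of 17 hypoxia-induced genes, *Ndrg1* (log2FC 0.52 ± 0.065, adjusted p = 0.0112) and *Higd1a* (log2FC 0.32 ± 0.066, adjusted p = 0.0397) rose and the histone demethylase *Kdm3a* fell (log2FC -0.50 ± 0.076, adjusted p = 0.0178). Of all genes tested 1.57% rose and 0.254% fell, and *Ndrg1* and *Kdm3a* changed the same way with DMSO alone (below). *Ndrg1* read 1373, 1524 and 1549.5 in replicates 1 to 3 at 4 h and 2083, 2215 and 2095 at 24 h, all of the later values above all of the earlier. Without replicate 2, *Higd1a* did not pass (adjusted p = 0.217). The glycolytic count was 2 without replicate 2 (*Pgk1*, *Pkm*, *Ldha*, *Gpi* and *Aldoc* then had adjusted p between 0.119 and 0.215), 13 without replicate 1 and 11 (with 1 that fell) without replicate 3. Summed astrocyte markers rose in each pair and were lowest in replicate 3, with 122509, 131267 and 74969.6 at 4 h and 135580.0, 160381 and 88058 at 24 h, and their part in the glycolytic values was not tested.

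Immediate early genes were among the largest falls. Of 31 tested, 4 fell (*Npas4*, *Fosb*, *Fos* and *Dusp4*) and 0 rose, against 0.254% of all genes that fell, and 27 were below 0 with a median of -0.26. *Npas4*, a transcription factor that neurons induce on calcium entry, read 656, 119.9 and 198 in replicates 1 to 3 at 4 h and 37.6, 45.6 and 48.3 at 24 h. Its 4 h libraries ranged widely, whereas those at 24 h lay together (log2FC -2.49 ± 0.38, adjusted p = 0.0178). *Fosb* read 144, 26.1 and 60.1 in replicates 1 to 3 at 4 h and 19.3, 13.1 and 8.2 at 24 h, and replicate 1 was highest at 4 h (log2FC -2.17 ± 0.36, adjusted p = 0.0224). *Fos* read 460.5, 426 and 226 in replicates 1 to 3 at 4 h and 122, 218 and 105 at 24 h, with no overlap (log2FC -1.33 ± 0.17, adjusted p = 0.0112). The MAP kinase phosphatase *Dusp4* read 4203, 4365 and 5907 in replicates 1 to 3 at 4 h and 2943, 3447 and 3541 at 24 h, and fell in every pair (log2FC -0.53 ± 0.078, adjusted p = 0.0177).

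The activity-regulated *Arc* was lower at 24 h in each pair but did not pass (log2FC -0.88, adjusted p = 0.139), nor did *Egr1* (log2FC -0.50, adjusted p = 0.0945), *Nr4a1* (log2FC -0.52, adjusted p = 0.133) or *Bdnf* (log2FC -0.34, adjusted p = 0.362). The secretory members *Scg2* and *Pcsk1* had log2FC of 0.25 and 0.42. Without replicate 1, 2 or 3, 7, 9 and 8 members fell.

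Other genes fell with them. The chemokine *Ccl2*, which draws monocytes, read 29.6, 131 and 32.3 in replicates 1 to 3 at 4 h and 8.69, 19.3 and 0.911 at 24 h. The 4 h value of replicate 2 was far above the others, and all 24 h values lay under all 4 h values (log2FC -2.83 ± 0.42, adjusted p = 0.0177). The stress-induced factor *Atf3* read 57.2, 276 and 91.2 in replicates 1 to 3 at 4 h and 32.8, 55.2 and 41.9 at 24 h, again with replicate 2 highest at 4 h (log2FC -1.40 ± 0.26, adjusted p = 0.0278), and the small Maf protein *Maff* read 71.5, 142 and 54.5 in replicates 1 to 3 at 4 h and 34.7, 38.5 and 30.1 at 24 h (log2FC -1.24 ± 0.23, adjusted p = 0.0278). Filamin C, an actin cross-linker encoded by *Flnc*, read 794, 1087 and 632 in replicates 1 to 3 at 4 h and 507, 569 and 288 at 24 h and had the smallest p among the genes that fell (log2FC -0.90 ± 0.10, adjusted p = 0.00868). *Gfy* (log2FC -1.09 ± 0.18, adjusted p = 0.0224), the aminopeptidase *Lvrn* (log2FC -0.87 ± 0.15, adjusted p = 0.0224), the calcium binding *Hrc* (log2FC -0.96 ± 0.17, adjusted p = 0.0245), *Tsga10* (log2FC -0.44 ± 0.079, adjusted p = 0.0255) and *Cpt1b*, which brings fatty acids into mitochondria (log2FC -0.64 ± 0.10, adjusted p = 0.0178), also fell. Without replicate 2, *Maff* did not pass (adjusted p = 0.0652). *Stab1*, a scavenger receptor of macrophages and endothelium named after its values were seen, fell by 1.64 on the log2 scale (adjusted p = 0.0222), and the summed microglial markers above were highest in the 4 h libraries of replicates 1 and 2. Their part in *Ccl2* and *Stab1* was not tested.

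**Figure D2:**
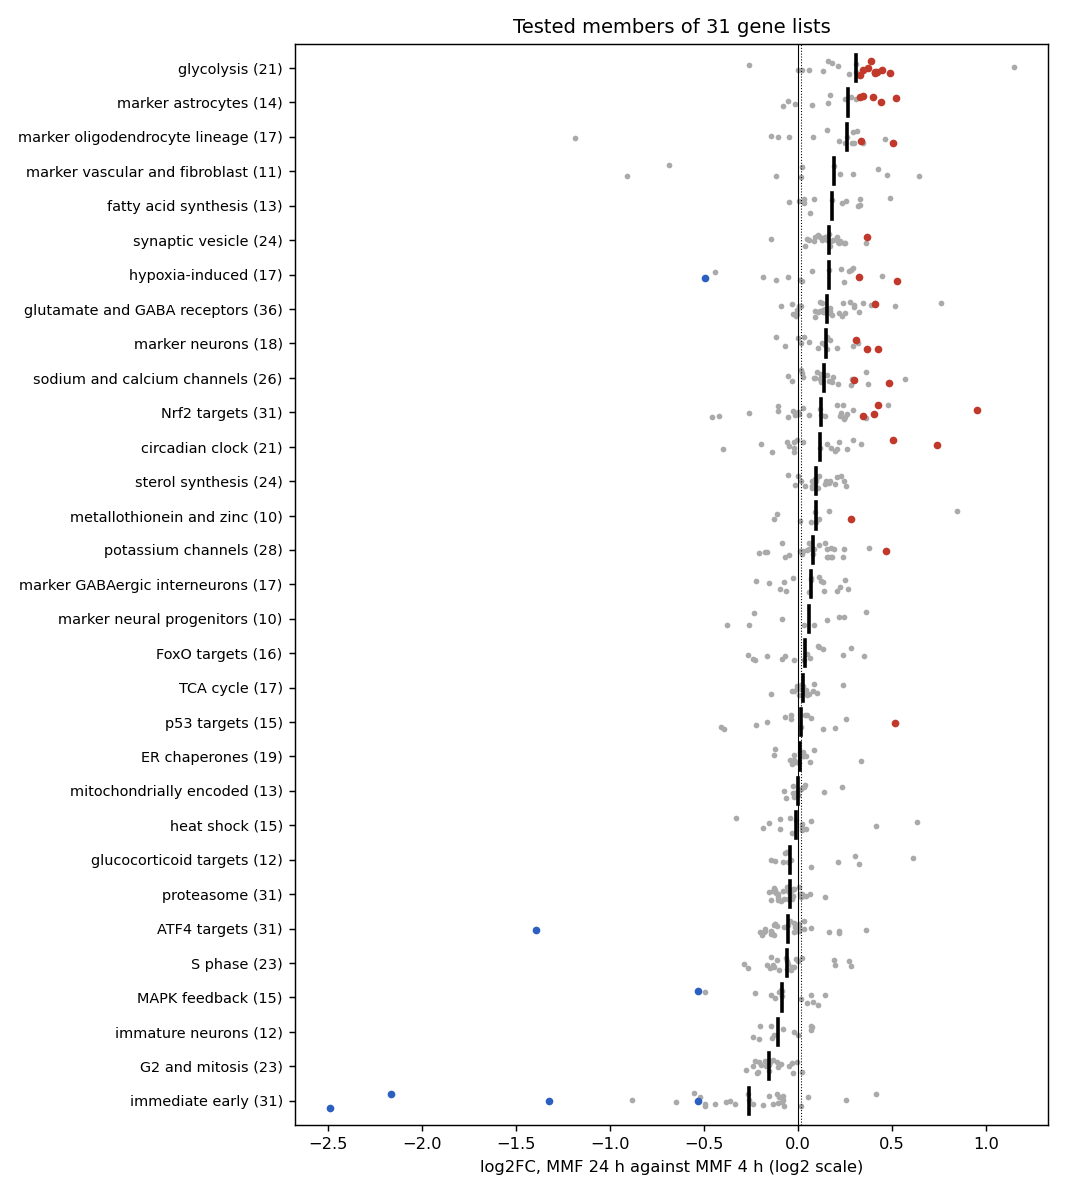
Each row is 1 of 31 gene lists, with the number of members tested, ordered by the median (black bar). Points are the log2FC of single members for MMF at 24 h against 4 h, red where they rose, blue where they fell and grey where they did not pass, and the dotted line is the median of all genes. Microglial markers are left out because 5 of 15 were tested, and their median of -0.84 would be the lowest. Among the lists shown, glycolysis is at the top with 9 red points and immediate early genes at the bottom with 4 blue ones.

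Genes of neuronal structure and signalling held few single calls and were mostly above 0, also with DMSO alone (below). Of 18 neuronal markers 3 rose, against 1.57% of all genes: the neurofilaments *Nefl* (log2FC 0.43 ± 0.074, adjusted p = 0.0246) and *Nefm* (log2FC 0.31 ± 0.06, adjusted p = 0.0346) and the vesicular glutamate transporter *Slc17a7* (log2FC 0.37 ± 0.076, adjusted p = 0.0397). *Nefl* read 3657, 3480.5 and 4071 in replicates 1 to 3 at 4 h and 5644, 4494 and 4949 at 24 h, without overlap. In the synaptic vesicle list, *Slc17a7* was the 1 DEG of 24, and 23 were above 0 (median 0.17). Of 26 sodium and calcium channel genes the T-type channels *Cacna1i* and *Cacna1g* (log2FC 0.29, adjusted p = 0.0407) rose and 24 were above 0, and of 28 potassium channel genes *Kcnc4* rose (log2FC 0.47, adjusted p = 0.0226). The 12 genes of immature neurons had a median of -0.10 and 0 DEGs, as did the 17 interneuron markers tested (median 0.071), each with 3 genes at an unadjusted p under 0.05. Without replicate 2, *Nefm* (adjusted p = 0.163), *Slc17a7* (adjusted p = 0.0928) and *Cacna1g* (adjusted p = 0.116) did not pass.

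Some glial markers rose, as some did with DMSO alone (below). Of 14 astrocyte markers tested 5 rose, against 1.57% of all genes: *S100b* (log2FC 0.52 ± 0.061, adjusted p = 0.0103), *Slc1a2* (log2FC 0.44, adjusted p = 0.0246), *Clu* (log2FC 0.40, adjusted p = 0.0231), *Aldoc* and *Gja1* (log2FC 0.33, adjusted p = 0.0362). *S100b* read 5592, 5676 and 2536 in replicates 1 to 3 at 4 h and 7879, 7968 and 3795 at 24 h, and in all 5 the 24 h value of replicate 3 lay under a 4 h value of another replicate. *Gfap* had a log2FC of 0.25 and did not pass. Without replicate 2, *S100b* was the 1 of 14 that passed. Of 17 oligodendrocyte lineage markers tested *Olig1* (log2FC 0.51 ± 0.10, adjusted p = 0.0388) and *Cnp* (log2FC 0.34, adjusted p = 0.0464) rose. *Olig1* read 5332, 8824 and 6699.7 in replicates 1 to 3 at 4 h and 9309.5, 9783 and 9920.2 at 24 h, with replicate 1 lowest at 4 h. Markers of microglia, of vascular cells and fibroblasts and of neural progenitors had 0 DEGs in limma among 5, 11 and 10 tested, with 2, 2 and 3 at an unadjusted p under 0.05. All 5 microglial markers were below 0, with a median of -0.84, the lowest of any list, whereas without replicate 1 their median was 0.10.

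The clock genes *Dbp* (log2FC 0.74 ± 0.11, adjusted p = 0.0177) and *Npas2* (log2FC 0.50 ± 0.11, adjusted p = 0.044) were the 2 of 21 that rose. Over all genes tested 1.57% rose, and both clock genes were also above 0 with DMSO alone (below). *Dbp*, an output of the circadian clock, read 305, 369 and 202 in replicates 1 to 3 at 4 h and 611, 541 and 322 at 24 h, and replicate 3 was lowest at both times. Single genes rose or fell in other lists: the p53 target *Phlda3* rose (log2FC 0.51, adjusted p = 0.033), as did the zinc-binding *Mt3* (log2FC 0.28, adjusted p = 0.0453), whereas *Atf3* was the 1 DEG among 31 ATF4 targets and *Dusp4* the 1 among 15 genes of MAP kinase feedback. Lists with 0 DEGs in limma, and between 1 and 5 members at an unadjusted p under 0.05, were sterol synthesis (24 tested, 22 above 0), fatty acid synthesis (13), ER chaperones (19), heat shock (15), proteasome (31), glucocorticoid targets (12), FoxO targets (16), S phase (23) and G2 and mitosis (23, of which 22 were below 0, median -0.15). Without replicate 3, *Mt3* (adjusted p = 0.101) and *Cnp* (adjusted p = 0.117) did not pass, and without replicate 2 neither *Mt3* (adjusted p = 0.179) nor *Npas2* (adjusted p = 0.105) nor *Phlda3* (adjusted p = 0.0554) did.

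The vehicle showed how much of this also occurred without MMF. Between 4 and 24 h, DMSO alone had 205 DEGs (1.47% of 13968 tested), 153 higher (1.1%) and 52 lower, and 0 without the block. These libraries share none with MMF. Of the 258 genes, 251 had the same sign in DMSO, among all genes 73.5%, and 89 were DEGs in both, which is 34.5% of the MMF list and 43.4% of the DMSO list. All 36 genes that fell were also below 0 in DMSO, with a median of -0.60, and the 222 that rose had a median of 0.31 there. Across 13902 genes, which are not independent replicates, the 2 sets of log2FC had a Pearson r of 0.54.

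The immediate early genes had lower values at 24 h in DMSO too: *Npas4* had a log2FC of -2.98 there, *Fosb* -3.05, *Fos* -1.84 and *Ccl2* -2.91, and the list had a median of -0.53 with 5 that fell. These leading genes rose in both: *Ntsr1* by a log2FC of 0.69 (adjusted p = 0.028), *Chrm1* by 0.66 (adjusted p = 0.0298) and *Ache* by 0.54 (adjusted p = 0.0452). In DMSO *Ndrg1* rose too (0.44, adjusted p = 0.0111) and *Kdm3a* fell (-0.58, adjusted p = 0.00754), whereas *Higd1a* did not pass (-0.021, adjusted p = 0.937). The clock genes *Dbp* (0.43, adjusted p = 0.0775) and *Npas2* (0.33, adjusted p = 0.206) were above 0 in DMSO and did not pass. *Hpcal4*, *Kndc1* and *Cacna1i* had nearly the same values in DMSO, of 0.47, 0.52 and 0.46. In DMSO, 6 of 15 oligodendrocyte lineage markers and 2 of 14 astrocyte markers rose, against 1.1% of all genes. *Olig1* (0.46, adjusted p = 0.00769), *Slc1a2* (0.38, adjusted p = 0.0169) and *S100b* (0.38, adjusted p = 0.0417) were among them, whereas *Clu*, *Gja1*, *Aldoc* and *Cnp* did not pass. Above 0 in DMSO were 17 of 18 neuronal markers, 21 of 24 synaptic vesicle genes and 23 of 26 sodium and calcium channel genes. Nrf2 targets and glycolysis had other values: in DMSO the Nrf2 list had 0 DEGs and a median of -0.027, with *Gsta1* at -0.20, *Gstp1* at -0.041, *Me1* at -0.027 and *Aox1* at -0.039, while glycolysis had 0 that rose, 2 that fell and a median of 0.11, with *Ldha* at 0.055 and *Tpi1* at 0.15.

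The difference itself, the MMF change with time minus the DMSO change with time, was tested over 12 libraries and 14413 genes. In limma 0 genes passed, with 355 at an unadjusted p under 0.05, and likewise 0 in edgeR with 390. DESeq2 called 2, *Gsta1* (log2 difference 1.18, adjusted p = 0.000364) and *Aox1* (log2 difference 1.01, adjusted p = 0.0325). Among the 5 genes of smallest p in limma, all above 0, were 4 members of the Nrf2 list: *Gsta1* had a log2 difference of 1.16 ± 0.17 (SE; adjusted p = 0.168), *Gstp1* of 0.47 ± 0.086 (adjusted p = 0.604), *Me1* of 0.38 ± 0.083 and *Nqo1* of 0.92 ± 0.21, beside *Aox1* with 0.99 ± 0.22. The adjusted p of the last 3 was close to 1. Over time in DMSO, *Nqo1* had a log2FC of -0.44 (adjusted p = 0.106). Of the 258 genes, 46 had an unadjusted p under 0.05 for the difference in limma. By list, the median difference was 0.33 for hypoxia-induced genes, 0.30 for immediate early genes, 0.25 for glycolysis and 0.13 for Nrf2 targets, against 0.012 over all genes. Over time in DMSO the hypoxia-induced list had a median of -0.15 with 3 that fell, beside 0.17 with MMF. The immediate early list had -0.53 in DMSO, beside -0.26 with MMF. The median difference was higher for the 5 microglial markers tested (1.13) and for vascular and fibroblast markers (0.54), and like that of Nrf2 targets for G2 and mitosis, the circadian clock and glucocorticoid targets (each 0.13). The part of those marker genes in the other differences was not tested. For glycolytic *Ldha* it was 0.35 ± 0.15, unadjusted 95% interval 0.031 to 0.68, and for *Tpi1* 0.29 ± 0.15, unadjusted 95% interval -0.036 to 0.62, and neither passed.

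Set beside DMSO at a single time, with which the above comparisons share libraries, MMF had 0 DEGs at 4 h (133 genes at an unadjusted p under 0.05 in limma, lowest adjusted p = 0.117) and 195 at 24 h (1.38%), 171 higher (1.21%) and 24 lower, and 1 without the block. At 24 h, 11 of the 31 Nrf2 targets, 8 of the 21 glycolytic genes and 7 of the 17 hypoxia-induced genes were higher with MMF. The list medians were 0.19, 0.23 and 0.34. Other lists also had members that were higher, such as G2 and mitosis with 4 of 23. *Gsta1* had a log2FC of 0.18 at 4 h and 1.34 at 24 h (adjusted p = 1.09e-06), *Aox1* 0.19 and 1.19 (adjusted p = 1.09e-06), and *Gstp1* 0.20 and 0.66 (adjusted p = 1.09e-06). *Ldha* had 0.0093 and 0.36 (adjusted p = 0.026). *Ntsr1*, *Npas4* and *Fos* had no adjusted p under 0.05 against DMSO at either time, whereas *Ache* (log2FC 0.61, adjusted p = 0.00324), *Ddn* (0.20, adjusted p = 0.0336) and *Lynx1* (0.44, adjusted p = 0.0497) were higher with MMF at 24 h.

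DMF at the same dose changed far more genes between the same times, 4616 (32.3%), of which 2312 rose and 2304 fell (2216 in all without the block). Of the 258 genes of MMF, 199 had the same sign with DMF, and 125 were DEGs of that sign, which is 48.4% of the MMF list and 2.71% of the DMF list, while 24 were DEGs of the opposite sign. The Pearson r across 14021 genes was 0.32. Of the 4 Nrf2 targets that rose with MMF, 3 also rose with DMF, *Gsta1* by a log2FC of 1.39, *Gstp1* by 1.20 and *Me1* by 0.82, as did *Aox1* by 1.43, whereas *Gstm1* did not pass (0.17, adjusted p = 0.0739). *Ntsr1* and *Chrm1* rose with DMF by 1.01 and 1.23. Some genes that fell with MMF went the other way: *Npas4* rose with DMF (1.73), as did *Fos* (1.00) and *Ccl2* (2.02), while *Fosb* (0.14, adjusted p = 0.872) and *Dusp4* (-0.0073, adjusted p = 0.949) did not pass. Of the immediate early list 17 rose with DMF, against 16.2% of all genes. The median of the glycolytic list was -0.021 with DMF, where *Ldha* had -0.17 and *Tpi1* -0.14.

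The MMF change with time minus the DMF change with time differed from 0 in 2209 of 14602 genes (15.1%), 1195 (8.18%) with a higher and 1014 (6.94%) with a lower change in MMF. The count was 587 without the block, 583 without replicate 2 and 1405 without replicate 3. For *Fos* the log2 difference was -2.33 ± 0.37, adjusted p = 0.000771, for *Npas4* -4.23 ± 0.81, adjusted p = 0.00267 and for *Ccl2* -4.85 ± 1.05, adjusted p = 0.00591. The transferase *Gstp1* rose less with MMF than with DMF (-0.77 ± 0.12, adjusted p = 0.000644), and so did *Me1* (-0.47 ± 0.091, adjusted p = 0.0027), whereas for *Gsta1* the difference did not pass (-0.44 ± 0.19, adjusted p = 0.129, unadjusted 95% interval -0.84 to -0.04). The glycolytic genes *Tpi1* (0.58 ± 0.083, adjusted p = 0.000294) and *Ldha* (0.57 ± 0.087, adjusted p = 0.000511) had a higher change with MMF, and so did 10 of the 21 of that list. All 23 genes of G2 and mitosis and 17 of the 19 ER chaperones had a higher change with MMF, against 8.18% of all genes. Their medians over time were -1.55 and -0.75 with DMF and -0.15 and 0.0093 with MMF.

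**Figure D3:**
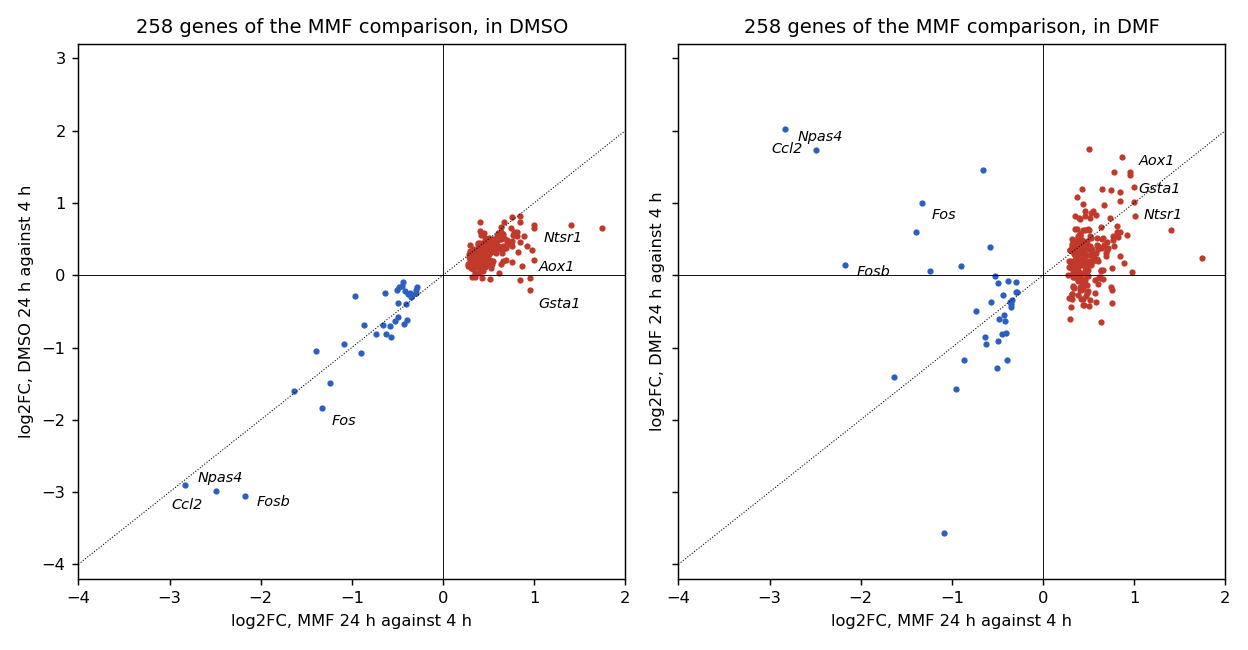
The 258 genes that changed between 4 and 24 h with MMF, with the MMF log2FC on the x axis of both panels and the log2FC over the same times with DMSO (left) or DMF (right) on the y axis, red for genes that rose with MMF and blue for genes that fell. The dotted line marks equal values. In the left panel all blue points lie below 0 on the y axis and *Gsta1* and *Aox1* lie near 0 on the y axis, and in the right panel *Ccl2*, *Npas4* and *Fos* lie above 0.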

How the data were processed

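Poly(A) RNA from the cultures was sequenced as paired reads. Per the labels' processing notes and the methods, the authors used FastQC 0.12.1, cutadapt 4.4, Trimmomatic 0.39, HISAT2 2.2.1 (mRatBN7.2), HTSeq 2.0.3 and DESeq2 1.40.2 in R 4.3.1; the strand setting is not given in the sources used here. The deposited signal is each gene's count after division, by the authors, by a DESeq2 size factor set within the 6 libraries of a table, so values of 2 tables are on separate scales. The authors' own fold changes and p-values in the same tables were not used. Values were whole multiples of 1 read for 100% of entries (tolerance 0.001), so whole reads were recovered.

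After filterByExpr (edgeR 4.0.16), log2(value + 1) was fitted in limma 3.58.1 (R 4.3.3) with the replicate number as a block and a variance moderated along the mean, and the Benjamini-Hochberg adjustment covered every gene in the fit. Fold changes of low genes are understated by the pseudocount. Differences between time courses were interaction terms over 12 libraries. Replicate numbers were accepted as pairs because deviations from the group means correlated between same-numbered MMF libraries (Pearson r 0.32 to 0.61 across genes, at most 0.18 between different numbers). The pairing was less clear in DMSO over time, with 0.162 to 0.503 for the same number and up to 0.185 for different numbers. In MMF against DMSO at 4 h these were 0.129 to 0.652 and up to 0.134. For DMF over time and MMF against DMSO at 24 h the ranges did not meet. That these libraries come from separate cultures rests on the labels alone. On simulated counts the tests were checked for recovery of planted changes.

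Alternatives were edgeR and DESeq2 1.42.0, TMM scaling, no filter, a pseudocount of 0.1, a spread from all 30 libraries, no block, and leaving out each pair. Members and gene lists were chosen with earlier results of these data known. Named genes, all protein-coding, were the 12 of smallest p in each direction that moved one way in all pairs without overlap, the 5 largest changes in each direction with a mean of at least 50, up to 6 DEGs of each list (where fewer than 2 were DEGs, also the 2 tested members of highest mean), and the 5 of smallest p in each difference. List members named beyond this, such as *Eno2*, *Pgam1*, *Hmox1*, *Arc* and *Gfap*, were picked after their values were seen. The CBD and ethanol libraries entered only the spread over all 30. Some results for single genes are not reported here.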

Additional observations from a re-analysis of the deposited data

Results flagged for a closer look

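The change between 4 and 24 h differed between MMF and DMF, both at 30 µM, in 2209 genes by the interaction test in limma. The 5 genes of smallest p in it were the mitotic genes *Top2a* (log2 difference, MMF minus DMF, 1.86), *Espl1* (1.78) and *Cdc20* (1.70), which fell with DMF (log2FC -2.03, -1.65 and -1.69), and *Srebf1* (-1.71), a regulator of lipid synthesis, and *Rgs4* (-2.37), a brake on G protein signalling, which rose with DMF (log2FC 2.03 and 2.26). With MMF none of the 5 passed between the times, with log2FC of -0.16, 0.13, 0.021, 0.33 and -0.11 in the order given. Groups of 3 libraries were not examined for single outlying samples.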

How the results depend on the processing

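Against the 258 genes called for MMF between 4 and 24 h, TMM scaling called 231, a pseudocount of 0.1 called 247, edgeR 232 and DESeq2 256, all with the replicate block, and 231, 247, 230 and 195 of these were among the 258. None of the 258 changed sign in a fit that gave it a value. The count was 107 without the filter on low counts, where more genes were tested, and 912 (636 higher, 276 lower) with the spread taken from all 30 libraries, for which the cause was not tested. Leaving out one pair gave 364 to 829 genes for MMF, 583 to 1895 for the difference from DMF and 0 in each case for the difference from DMSO. For MMF over time such fits had little to estimate each gene's own spread from.

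Without the replicate block, that is, with the pairing ignored, MMF had 0 calls in limma, 0 in edgeR and 49 in DESeq2. Without it DMSO over time had 0, DMF over time 2216, MMF against DMSO 0 at 4 h and 1 at 24 h, the difference from DMSO 0 and the difference from DMF 587. With the block, DESeq2 called 2 genes for the difference from DMSO. The unblocked edgeR and DESeq2 fits, and the unblocked fits of DMSO, of DMF and of MMF against DMSO, were chosen after seeing the data. Of the 66 named changes and differences of single genes, the 5 differences from DMSO had no call to lose. Without the block 56 lost their call, and these were all the named changes of MMF over time. The losses were 19 without replicate 2, 15 without the filter, 14 with the spread of 30 libraries, 4 with DESeq2, 2 without replicate 3, and 1 each with TMM scaling and with edgeR. DESeq2 also gave a call to 2. The spread of 30 libraries was fitted for MMF over time only, and genes without an adjusted p in DESeq2 were left out. At this depth 10 of the 15 microglial markers did not pass the filter on low counts and were not tested.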
